A study of Homo sapiens with 11 samples.

Results

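The mitochondrial ribosomal protein genes, those with MRPL or MRPS symbols, were followed through the expression table of HCC78 lung adenocarcinoma cells. A member was any protein-coding row whose symbol is MRPL or MRPS followed by a number and at most 1 letter, a rule that uses no measured value. It found 78 of 57773 rows, with 76 symbols: 48 rows were MRPL genes (named for the large subunit) and 30 were MRPS genes (named for the small subunit). MRPL30 and MRPS17 each had a second gene ID, ENSG00000273155.1 and ENSG00000249773.3, with a mean of 0.15 and 0.599 FPKM (fragments per kilobase of transcript, scaled to the reads of the library). These 2 rows were under the minimum mean of 1 FPKM, so 76 of the 78 members were tested.

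HCC78 cells carry U2AF1 S34F on an endogenous allele, together with a fusion of SLC34A2 and ROS1, so every library described here shares them. U2AF1 is a splicing factor that reads the 3′ splice site. Stable subclones of HCC78 had been made with a tetracycline-inducible lentiviral vector for FLAG- and HA-tagged wild-type (WT) or S34F U2AF1, and RNA was sequenced from them with (dox+) or without (dox-) doxycycline. The groups were WT dox+, WT dox-, S34F dox+ and parental with 2 libraries each, and S34F dox- with 1. According to the labels, S34F made up 12% and 14% of U2AF1 in WT dox+, 62% and 65% in S34F dox+, 33% in both WT dox- libraries, 28% in S34F dox- and 32% in both parental libraries. The labels call the parental libraries dox minus, whereas a table of the study heads them as dox plus, so whether they had the drug is uncertain. Each line was a subclone, the dose of doxycycline for RNA-Seq was not given, and no source says that replicates were separate cultures, so p-values measure only the spread between these libraries. Doxycycline and the induced U2AF1 came together in every dox+ library and cannot be told apart.

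Mitochondria have their own ribosome, the mitoribosome, which translates the few respiratory chain proteins encoded by mitochondrial DNA. All of its proteins are encoded in the nucleus, made in the cytosol and imported, and only some have a counterpart in bacterial ribosomes. Doxycycline is a tetracycline, a class of antibiotic that binds the small subunit of bacterial ribosomes and also slows translation by mitoribosomes. It is known for this side effect when used as an inducer in cultured cells.

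The 5 epithelial markers, EPCAM, CDH1, KRT8, KRT18 and KRT19, were at or above 1 FPKM in all 9 libraries, as were 4 of 5 lung and fusion partner genes (SFTPB was at 0.25 FPKM in its lowest library). Of the fibroblast markers only COL1A1, 1 of 5, did so, and none of the 4 blood and 2 endothelial markers. U2AF1 itself was at 278 and 299 FPKM in WT dox+ and 164 and 223 FPKM in S34F dox+. It was at 110 to 115 FPKM in the 3 dox- libraries of the transduced lines. The table holds no read totals, but the steps between low values put the relative depth (parental replicate 1 set at 1) at 0.603 to 1.08 in dox+, 0.993 to 2.51 in dox- and up to 1.11 in the parental libraries. The libraries also differed in how many genes reached 1 FPKM, at 15736 to 20896 in dox+ and 13661 to 14490 in dox-. Protein-coding genes made up 49.7% to 56.7% of TPM (a transcript's share of the library, scaled to a fixed total) in dox+ and 57.0% to 59.1% in dox-. The part that these differences have in the members' values was not tested.

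The members' promoters are described ahead of the comparisons that follow, but they were read with the doxycycline response known. RefSeq held a window of 300 bases, from 250 before to 50 after the start of transcription, for 67 of the 76 symbols (build GRCh38.p14), and each window was searched on both strands for 7 motifs. The letters CCGGAAG, which ETS factors such as GABPA are known to bind, were in the windows of 29 of 67 members (43.3%), against 12.2% of all genes with a window and 23.1% of the 8960 other protein-coding genes tested. The letters AAGATGGC, known from YY1 sites, were in 21 of 67 (31.3%), against 3.52% of all genes and 6.67% of the coding genes tested. At least 1 of the 2 motifs was in 42 members and both were in 8. The first started within 50 bases of the start in 24 members, and the second lay past the start in 16.

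The NRF1 motif was in 1.49% of the members and 1.52% of all genes. CACGTG was in 13.4% and 8.77%, CCAAT in 34.3% and 39.7%, GGGGCGGGG in 26.9% and 18.5%, and TATAAA in 4.48% and 14.0%. Of the other coding genes tested, 2.69% held the NRF1 motif, 12.9% CACGTG, 43.7% CCAAT, 33.2% GGGGCGGGG and 8.36% TATAAA. MRPL46 (minus strand) and MRPS11 (plus strand) were the only pair of members with overlapping windows on opposite strands, at chr15:88467339-88467638 and chr15:88467458-88467757.

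The windows of 6 members are printed 5′ to 3′ along the gene, with CCGGAAG and AAGATGGC or their reverse complements in capitals. MRPS16 (chr10:73252595-73252894, minus strand) and MRPS24 (chr7:43869468-43869767, minus strand) are shown for the lowest fold changes with doxycycline among members without overlap, MRPL12 (chr17:81703117-81703416, plus strand) as a member past the adjusted threshold that holds neither motif, MRPS34 (chr16:1773085-1773384, minus strand) and MRPL3 (chr3:131502922-131503221, minus strand) as the members of highest level, and MRPS14 (chr1:175023376-175023675, minus strand) as one whose level did not go down.
MRPS16: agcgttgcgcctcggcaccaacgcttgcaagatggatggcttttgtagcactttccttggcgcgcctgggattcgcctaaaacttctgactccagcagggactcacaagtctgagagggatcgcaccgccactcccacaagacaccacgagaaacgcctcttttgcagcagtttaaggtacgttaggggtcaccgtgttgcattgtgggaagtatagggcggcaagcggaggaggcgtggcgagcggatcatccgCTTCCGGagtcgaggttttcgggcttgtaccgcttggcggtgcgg
MRPS24: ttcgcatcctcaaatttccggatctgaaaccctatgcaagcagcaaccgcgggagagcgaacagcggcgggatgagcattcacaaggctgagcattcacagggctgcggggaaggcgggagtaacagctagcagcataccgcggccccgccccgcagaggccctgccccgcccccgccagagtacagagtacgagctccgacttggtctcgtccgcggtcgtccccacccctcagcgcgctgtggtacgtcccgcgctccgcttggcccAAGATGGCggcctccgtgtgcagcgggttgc
MRPL12: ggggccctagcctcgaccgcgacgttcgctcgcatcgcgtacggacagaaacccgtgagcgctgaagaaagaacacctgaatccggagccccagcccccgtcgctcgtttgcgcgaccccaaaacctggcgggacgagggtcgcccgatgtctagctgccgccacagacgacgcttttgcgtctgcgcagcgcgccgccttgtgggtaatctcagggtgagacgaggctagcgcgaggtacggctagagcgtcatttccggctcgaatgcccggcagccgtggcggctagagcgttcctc
MRPS34: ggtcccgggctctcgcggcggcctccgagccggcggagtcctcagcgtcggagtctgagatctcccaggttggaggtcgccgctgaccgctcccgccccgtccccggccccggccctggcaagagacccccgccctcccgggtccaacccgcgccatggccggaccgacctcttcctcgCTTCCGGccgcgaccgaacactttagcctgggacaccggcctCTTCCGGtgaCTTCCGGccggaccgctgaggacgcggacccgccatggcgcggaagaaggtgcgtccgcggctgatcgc
MRPL3: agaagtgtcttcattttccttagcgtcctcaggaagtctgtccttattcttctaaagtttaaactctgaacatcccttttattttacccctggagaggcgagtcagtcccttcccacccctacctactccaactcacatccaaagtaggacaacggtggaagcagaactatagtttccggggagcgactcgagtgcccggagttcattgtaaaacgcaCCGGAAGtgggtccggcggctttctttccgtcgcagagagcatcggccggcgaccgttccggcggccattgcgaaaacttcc
MRPS14: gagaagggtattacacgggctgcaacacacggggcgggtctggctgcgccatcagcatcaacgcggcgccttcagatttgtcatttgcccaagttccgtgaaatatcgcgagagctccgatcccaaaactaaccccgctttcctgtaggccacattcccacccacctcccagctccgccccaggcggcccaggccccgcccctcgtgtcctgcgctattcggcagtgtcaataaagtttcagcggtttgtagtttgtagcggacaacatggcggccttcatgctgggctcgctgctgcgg
CCGGAAG lay on the opposite strand 5 bases past the start in MRPS16 and 3 times in MRPS34, at 71, 29 and 19 bases before it, and on the gene's own strand 32 bases before the start of MRPL3. AAGATGGC lay 19 bases past the start of MRPS24. Members with CCGGAAG had a median log2 fold change with doxycycline of -0.31 (n = 29) and those without it -0.28 (n = 38), and for AAGATGGC the medians were -0.30 (n = 21) and -0.28 (n = 46). These differences in the response described next were not tested, and a match in a window is not evidence of a bound factor.

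All 76 tested members were well expressed. Their means over the 9 libraries ran from 7.69 FPKM for MRPL41 to 121 FPKM for MRPS34, a 15.8-fold range, with a median of 39.3 FPKM against 10.5 for all 15179 genes tested and 14.9 for the protein-coding ones. Since FPKM is per length, these levels can be compared between genes. Between 20 and 100 FPKM lay 63 members, 4 were above and 9 below.

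The 5 members of highest level were MRPS34 (121 FPKM, a small subunit protein without a bacterial counterpart), MRPL3 (121 FPKM, which sits near the site where peptide bonds form), MRPL33 (112 FPKM), MRPL9 (106 FPKM) and MRPL20 (99.4 FPKM). MRPS34 ranged from 104 to 146 FPKM over the 9 libraries and MRPL3 from 104 to 137 FPKM, so their order was not larger than their spread. The 5 lowest were MRPL41 (7.69 FPKM), MRPL50 (9.62 FPKM), MRPS36 (9.67 FPKM, a protein now known as a part of the 2-oxoglutarate dehydrogenase complex), MRPL30 (10.0 FPKM) and MRPS14 (11.5 FPKM), whose ranges overlapped each other as well. No tested member was close to the minimum of 1 FPKM. The members had a coefficient of variation over the 9 libraries of 14.0% at the median, and that of all genes was not computed. MRPL30 varied most, at 43.9%, and its replicates were far apart: 14.2 and 6.07 FPKM in the parental line, 10.5 and 5.94 FPKM in WT dox-, and 18.0 and 9.14 FPKM in WT dox+.

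The median member was at 34.9 and 36.0 FPKM in WT dox+, 35.2 and 35.9 FPKM in S34F dox+, 44.3 and 40.8 FPKM in WT dox-, 44.7 FPKM in S34F dox-, and 41.0 and 41.1 FPKM in the parental line. All 4 dox+ libraries were therefore below all 5 others. The sum of all members took 0.272% to 0.303% of TPM in dox+, 0.334% to 0.372% in dox- and 0.304% and 0.310% in the parental line. As a share of protein-coding TPM alone the order was the same, at 0.524% to 0.564% in dox+, 0.586% to 0.632% in dox-, and 0.574% and 0.580% in the parental line. In bulk RNA, a lower level in each cell and fewer cells that make the RNA cannot be told apart.

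**Figure D1:**
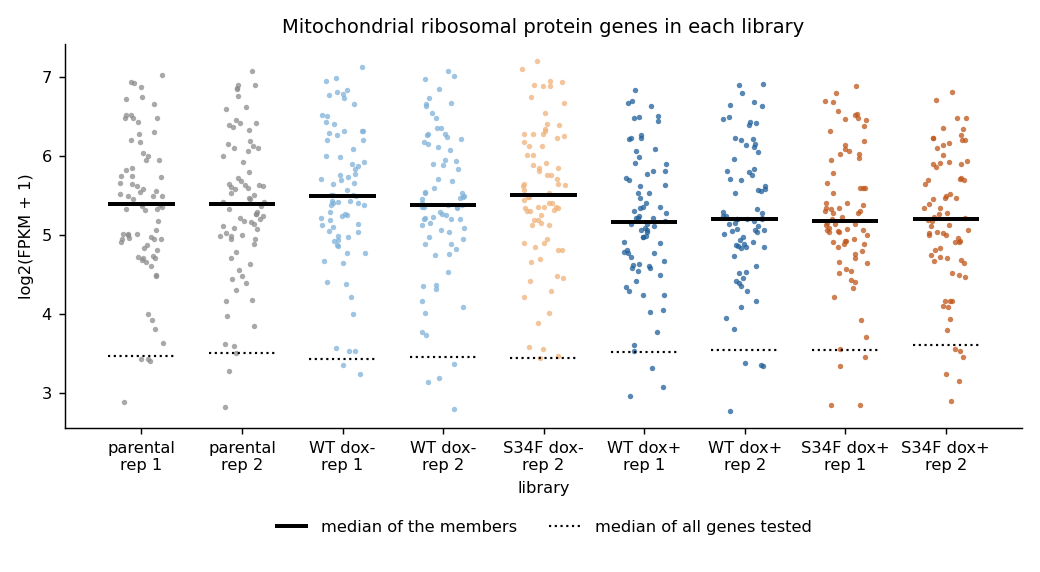
Level of the 76 tested members in each library, as log2(FPKM + 1) on the y axis, 1 point a gene, with 1 column for each of the 9 libraries on the x axis. Solid lines are the members' medians, at 5.17 to 5.21 in the 4 dox+ libraries and 5.39 to 5.51 in the 5 others, and dotted lines are the medians of all genes tested, at 3.43 to 3.61.

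To ask whether the members moved with doxycycline, the dox+ and dox- libraries of both transduced lines were compared, as the mean of the 2 within-line differences. The members were lower in dox+ almost throughout. Their median log2 fold change on the log2(FPKM + 1) scale was -0.29, a decrease of 18.0%, whereas the median of all genes tested was 0.08. The fold change was negative in 73 of 76 members, as it was in 41.3% of all genes. The other 3, all small subunit genes, had a positive value, MRPS14 (0.10 ± 0.15, SE), MRPS21 (0.07 ± 0.12) and MRPS6 (0.04 ± 0.12), and none was larger than its error. Under median-ratio scaling, which moved the median of all genes from 0.08 to -0.09, all 76 members were negative, with a median of -0.48, and MRPS14 turned to -0.08.

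At an unadjusted p under 0.05 (limma) 36 of 76 members were lower and 0 higher, beside 9.22% of all genes lower and 15.9% higher. In 36 members as well, all 4 dox+ libraries were below all 3 dox- libraries, which was so for 9.76% of all genes. For 0 members all 4 were above, against 15.2% of all genes. After Benjamini-Hochberg adjustment over all genes 3 members passed as lower and 0 as higher, where 1.09% of all genes passed as lower and 2.79% as higher. The 3 were MRPS24, MRPL15 and MRPL12, each the counterpart of a bacterial ribosomal protein. None of the 3 calls held when any 1 of the 6 libraries other than S34F dox- was left out (either replicate of WT dox-, WT dox+ or S34F dox+), while 24 to 36 members stayed lower at an unadjusted p under 0.05 and 67 to 72 stayed negative. The adjusted count was 23 under median-ratio scaling, where 343 of all genes were called higher and 837 lower in place of 424 and 165, and it was 0 with quantile normalization, with no minimum FPKM, with only the groups compared and with the replicate number as a block. The gap between the members' median and that of all genes, -0.36, was -0.22 with quantile normalization.

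**Figure D2:**
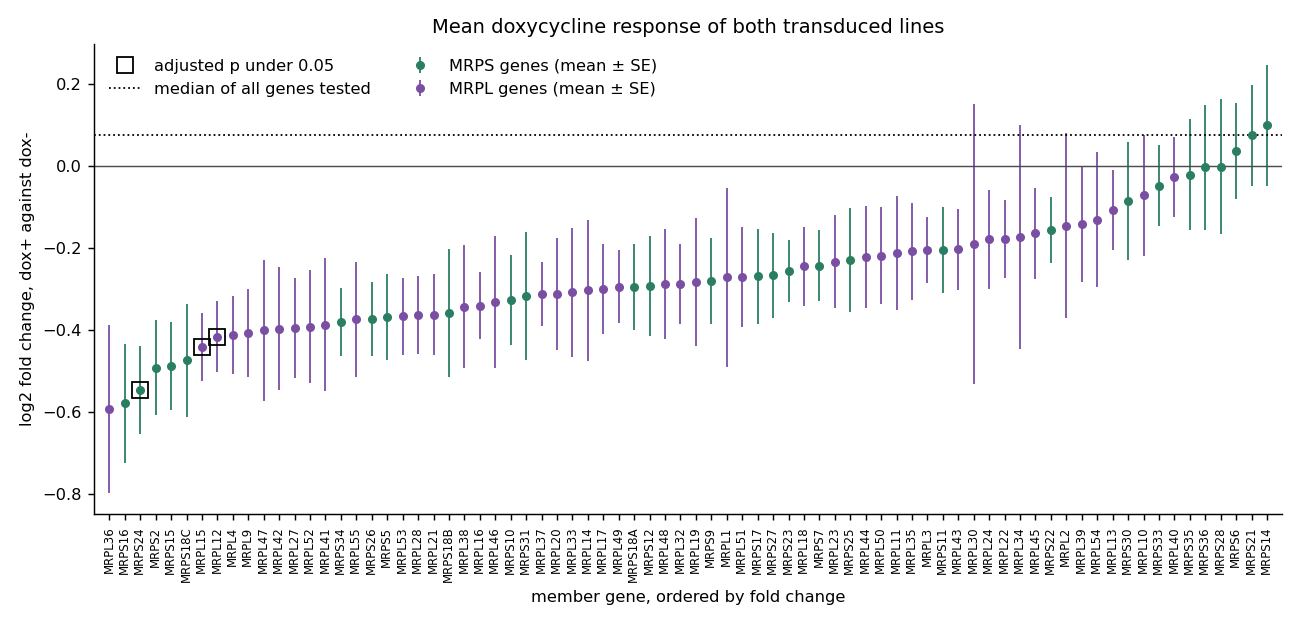
Log2 fold change of each tested member between dox+ and dox-, mean of both lines, on the y axis, with 1 point a gene ordered along the x axis and bars of 1 SE from limma. Of the 76 points 73 lie under 0, the dotted line is the median of all genes tested at 0.08, and squares mark the 3 members with an adjusted p under 0.05.

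MRPS24 was at 34.2 and 32.5 FPKM in WT dox+, 39.4 and 39.7 FPKM in S34F dox+, 56.5 and 50.6 FPKM in WT dox- and 53.5 FPKM in S34F dox-. All 4 dox+ values were under all 3 dox- values, and it fell by 0.55 ± 0.11 on the log2 scale (SE; limma, adjusted p = 0.0431). The parental libraries, at 45.2 and 36.0 FPKM, lay between the 2 sets or among the dox+ values.

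MRPL12 forms the flexible stalk of the large subunit, where translation factors dock. It was at 48.9, 51.4, 47.5 and 50.8 FPKM in the 4 dox+ libraries and at 67.4, 61.2 and 69.0 FPKM in the 3 dox- libraries, and fell by 0.42 ± 0.09 (limma, adjusted p = 0.0469). The parental line had 52.2 and 48.8 FPKM, within reach of the dox+ libraries. MRPL15, in the core of the large subunit, was at 36.8, 34.6, 38.7 and 36.3 FPKM in dox+ and at 44.4, 43.7 and 56.8 FPKM in dox-, a fall of 0.44 ± 0.08 (limma, adjusted p = 0.0395). Its parental values of 46.2 and 44.7 FPKM were among those of WT dox-, and the single S34F dox- library stood above them all.

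MRPS16, MRPS2 and MRPS15, small subunit proteins with bacterial counterparts, had fold changes as large without passing the adjusted threshold. MRPS16 was at 30.5, 28.1, 20.7 and 22.1 FPKM in dox+ and 34.3, 37.7 and 39.9 FPKM in dox-, a log2 fold change of -0.58 ± 0.15 (limma, adjusted p = 0.0685). MRPS2 was at 25.5, 32.9, 34.3 and 30.4 FPKM in dox+ and 40.8, 39.9 and 46.7 FPKM in dox-, a log2 fold change of -0.49 ± 0.12 (limma, adjusted p = 0.0585). MRPS15 was at 76.1, 84.7, 82.7 and 74.1 FPKM in dox+ and 114, 98.9 and 118 FPKM in dox-, a log2 fold change of -0.49 ± 0.11 (limma, adjusted p = 0.0517). In all 3 genes the groups did not overlap. MRPL36, a large subunit protein with a bacterial counterpart, had the lowest value of all members at -0.59 ± 0.21, but its dox+ libraries (16.3 to 29.3 FPKM) overlapped the dox- ones (28.8 to 39.6 FPKM).

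The members were also read by their place in the ribosome. At the decoding region and head of the small subunit, MRPS12 had a log2 fold change of -0.29 ± 0.12, MRPS7 of -0.24 ± 0.09 and MRPS14 of 0.10 ± 0.15. MRPS14, at 10.6 to 14.2 FPKM in dox+ and 10.6 to 12.3 FPKM in dox-, overlapped fully, and its value ran from 0.01 to 0.19 when 1 of the S34F dox+ libraries was left out. Among the small subunit proteins specific to mitochondria, MRPS34 was at 104 to 112 FPKM in dox+ and 128 to 146 FPKM in dox- (-0.38 ± 0.08; limma, adjusted p = 0.0509), and MRPS22 had a value of -0.16 ± 0.08.

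In the large subunit, MRPL4, MRPL3 and MRPL2, grouped here with the peptidyl transferase centre, had values of -0.41 ± 0.10, -0.21 ± 0.08 and -0.15 ± 0.22. MRPL2 had the widest error of the 3, with libraries from 12.7 to 25.3 FPKM, and its value ran from -0.28 without S34F dox+ replicate 1 to -0.01 without S34F dox+ replicate 2. Beside MRPL12 at the stalk base, MRPL11 had -0.21 ± 0.14 and MRPL10, which anchors MRPL12, -0.07 ± 0.15. The value of MRPL10 turned to 0.03 without WT dox+ replicate 1, so its sign rested on 1 library, and that of MRPL11 was -0.11 without S34F dox+ replicate 2. At the exit tunnel MRPL23 had -0.23 ± 0.11, MRPL24 -0.18 ± 0.12 and MRPL45, which contacts the inner membrane, -0.16 ± 0.11. MRPL37, MRPL38 and MRPL44, which bacteria lack, had -0.31 ± 0.08, -0.34 ± 0.15 and -0.22 ± 0.12. Without S34F dox+ replicate 2 the values of MRPL45 and MRPL44 were -0.07 and -0.12, without S34F dox+ replicate 1 that of MRPL38 was -0.20, and without WT dox+ replicate 1 that of MRPL23 was -0.15. Every site held members with a negative value, which says little about the sites since 73 of the 76 members had one. Differences between sites were not tested.

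By symbol, the median was -0.27 for 29 MRPS genes, 26 of them negative, and -0.29 for 47 MRPL genes, all 47 negative. The symbol is not the subunit throughout, since MRPS18A and MRPS30 are known to sit in the large subunit and MRPS36 in neither. Members with a bacterial counterpart had a median of -0.29 (43 of 46 negative) and those without one -0.27 (30 of 30 negative). The differences between these medians were not tested.

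Level and gene size also moved with the response, and their part in the members' response was not tested. Coding genes other than the members went from a median log2 fold change of 0.23 in the lowest of 4 equal bins of level to -0.10 in the highest. Within the same bins the members were at -0.21 (6 genes, the second bin), -0.29 (25 genes, the third) and -0.29 (45 genes, the highest), while the other genes there were at 0.07, -0.02 and -0.10. By genomic span, other coding genes went from -0.06 in the shortest of 4 bins to 0.16 in the longest, and the members from -0.33 (47 genes) to -0.27 (4 genes). The members were lower than the other genes in each of these bins that held any. The 66 rows of MRPL and MRPS pseudogenes, which could share reads with their parent genes, had a higher sum in dox+ than in dox-. Of these rows 5 reached 1 FPKM. They summed to 19.1 and 53.8 FPKM in WT dox+, 21.0 and 42.5 FPKM in S34F dox+, and 11.2 to 17.7 FPKM in dox-. The larger sum was that of replicate 2 in each line, and the parental libraries had 17.9 and 19.25 FPKM. In both lines replicate 2 also had more genes of any kind at 1 FPKM, 17716 against 16053 in WT dox+ and 20896 against 15736 in S34F dox+. No sum of other pseudogenes was set beside these, and the cause was not tested.

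Each transduced line was then taken alone, and the 2 responses share no library. In the WT line the median log2 fold change of the members was -0.25 (all genes 0.05), and 67 of 76 were negative, as were 43.6% of all genes. Here 20 members were lower at an unadjusted p under 0.05 (limma) and 0 higher, beside 5.59% and 8.8% of all genes. After adjustment 0 passed in either direction, as for 0.00659% of all genes in each. The unadjusted count was 5 without WT dox- replicate 1 and 4 without WT dox+ replicate 1, with 65 and 62 members still negative. Both WT dox+ libraries were below both WT dox- libraries in 49 members (20.8% of all genes) and above in 1 (28.9% of all genes), MRPS33.

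In the S34F line, with 1 dox- library whose spread was taken from the other groups, the median was -0.32 (all genes 0.09) and 71 members were negative, as were 41.2% of all genes. There 25 were lower at an unadjusted p under 0.05 (limma), against 5.11% of all genes, 0 were higher (10.6% of all genes) and 0 passed after adjustment (0.0856% lower and 0.198% higher). That dox- library could not be left out and was the deepest, at 2.51 times parental replicate 1, so these counts cannot be told apart from what is particular to it.

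Of the members, 65 of 76 (85.5%) were negative in both lines, as were 28.5% of all genes, and 3 were positive in both, MRPS14, MRPS21 and MRPS6. Across the 76 members the fold changes of the 2 lines had a Pearson r of 0.07, against 0.445 across all genes. It was 0.35 over the 75 members other than MRPL30, left out after its values were seen. The members span a narrower range than all genes (in the WT line -0.66 to 0.63 against -4.83 to 9.61), so their r and that of all genes are not alike in basis. These are descriptions across genes, which share libraries and are not independent replicates.

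**Figure D3:**
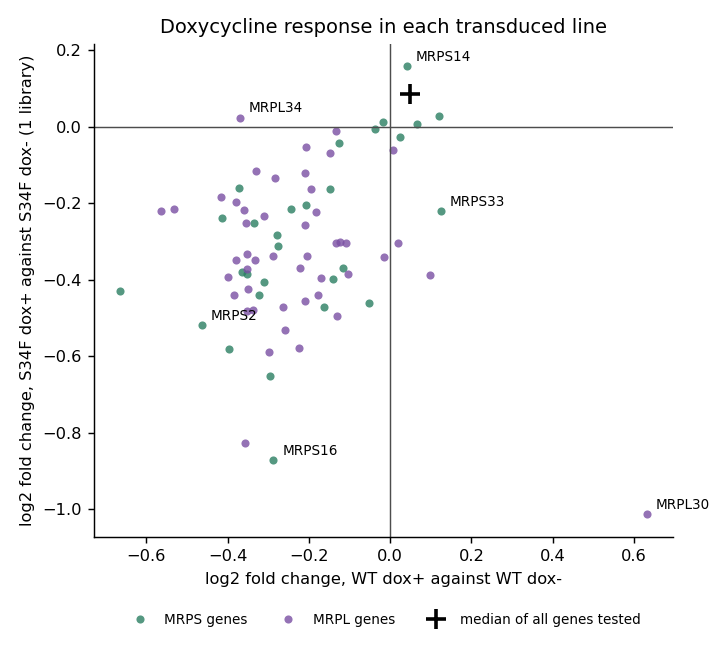
Log2 fold change of each tested member between dox+ and dox- in the WT line on the x axis and in the S34F line on the y axis, 1 point a gene. Of 76 points 65 are negative on both axes, the cross marks the median of all genes tested (0.05 and 0.09), and MRPL30 stands apart at 0.63 and -1.01.

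The lowest fold changes in the WT line among members without overlap were those of MRPS24, MRPL52, MRPL55 and MRPS2. MRPL52 was at 48.4 and 65.3 FPKM in WT dox+ against 91.4 and 76.3 FPKM in WT dox- (-0.56 ± 0.18; limma, adjusted p = 0.238). MRPL55 was at 33.1 and 31.3 FPKM against 50.8 and 43.5 FPKM (-0.53 ± 0.18; limma, adjusted p = 0.265). MRPS24 had -0.66 ± 0.14 (limma, adjusted p = 0.146) and MRPS2 -0.46 ± 0.15 (limma, adjusted p = 0.240). All 4 were thus separated between the groups but not past the adjusted threshold, and without WT dox+ replicate 1 MRPL52 was at -0.35 and MRPS2 at -0.29. MRPS33, the 1 member that was separated upwards, was at 21.6 and 22.3 FPKM against 20.3 and 19.7 FPKM, a log2 fold change of 0.12 ± 0.13 (limma, adjusted p = 0.682).

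Whether the 2 lines responded differently was tested as the S34F response minus the WT response, which rests on the same single S34F dox- library. The lines also differed in their level of U2AF1 under doxycycline, as given above. No member passed after adjustment, beside 0.0198% of all genes lower and 0.00659% higher. At an unadjusted p under 0.05 (limma) 2 members were lower, against 1.21% of all genes, and 0 higher, against 2.21%. The median difference was -0.05 for the members and 0.03 for all genes. The 2 were MRPL30 (-1.65 ± 0.68) and MRPS23 (-0.41 ± 0.15), the latter named after its values were seen, each with an adjusted p of 1.00 (limma). Without WT dox+ replicate 1 the 2 became 0, and MRPL30, whose replicates are of unlike level as given above, was at -1.19. MRPS16 had -0.58 ± 0.29, MRPL2 -0.49 ± 0.45 and MRPL36 -0.47 ± 0.41, and in the other direction MRPL34 had 0.39 ± 0.55, MRPL52 0.34 ± 0.28, MRPL55 0.32 ± 0.28 and MRPS24 0.24 ± 0.21. Each of these came with an adjusted p of 1.00 (limma). Over the 6 libraries that could be left out 1 at a time, MRPL2 ran from -0.75 to -0.23 and MRPL36 from -0.88 to -0.06, both lowest without S34F dox+ replicate 1 and nearest to 0 without S34F dox+ replicate 2. MRPL55 ran from 0.06 without S34F dox+ replicate 2 to 0.57 without replicate 1 of that group. Without WT dox+ replicate 1 MRPL52 was at 0.13 and MRPL34 turned to -0.03, and without WT dox+ replicate 2 they were at 0.56 and 0.82. With a median SE of 0.24 for a member, differences between the lines well above that size could go uncalled, as that of MRPS16 did even before adjustment.

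Genes that work with the mitoribosome were read beside the members, in lists described by counts and medians. Proteins listed with the mitoribosome under different symbols were as low, at a median log2 fold change of -0.29 (7 of 8 negative). GADD45GIP1 passed the adjusted threshold (-0.42 ± 0.09; limma, adjusted p = 0.0499), DAP3 had -0.38 ± 0.09, and OXA1L and PTCD3 had -0.14 ± 0.08 and 0.23 ± 0.13. Mitoribosome assembly genes had a median of -0.20 (23 of 25 negative), with RNMTL1, an rRNA methyltransferase (-0.51 ± 0.10), and C1QBP (-0.49 ± 0.10) past the threshold at adjusted p = 0.0405 and 0.0485 (limma), and with TRUB2 and GTPBP10 at 0.07 ± 0.12 and 0.20 ± 0.19. Translation factors and RNA regulators of mitochondria had a median of -0.20 (13 of 15 negative). SLIRP, which stabilises mitochondrial mRNA, passed at -0.56 ± 0.10 (limma, adjusted p = 0.0375), while TACO1 had -0.41 ± 0.09, C12orf65 0.00 ± 0.11 and MTRF1 0.15 ± 0.15.

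Mitochondrial chaperones and proteases had a median of -0.26 (10 of 12 negative), and none passed. They ran from DNAJA3 (-0.53 ± 0.15) and AFG3L2 (-0.41 ± 0.12) to CLPX (0.08 ± 0.09) and SPG7 (0.57 ± 0.14). For factors that drive mitochondrial biogenesis the median was -0.21 (10 of 12 negative), from MYC (-0.61 ± 0.22) and PPARGC1B (-0.50 ± 0.21) to YY1 (0.34 ± 0.14) and PPARGC1A (0.48 ± 0.28). The tRNA synthetases of mitochondria were nearer to 0, at -0.09 (14 of 20 negative), with MARS2 (-0.57 ± 0.17) and YARS2 (-0.33 ± 0.21) lowest and VARS2 (0.13 ± 0.18) and TARS2 (0.17 ± 0.17) highest. None of these genes passed the adjusted threshold.

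The products that the mitoribosome translates, and the rRNA it is built on, are encoded by mitochondrial DNA. Those genes had a median of -0.17 (12 of 15 negative) and took 4.04% to 7.43% of TPM in dox+ and 5.97% to 6.71% in dox-, ranges that overlapped. MT-ND2 (-0.40 ± 0.16) and MT-ATP8 (-0.32 ± 0.22) were lowest and MT-CO1 (0.22 ± 0.17) and the large rRNA MT-RNR2 (0.03 ± 0.22) highest, and none passed. Nuclear subunits of the respiratory chain had a median of -0.11 (59 of 76 negative). SDHB (-0.46 ± 0.08), CYC1 (-0.48 ± 0.10) and ATP5D passed as lower, with COX7B and NDUFC1 highest at 0.23 ± 0.24 and 0.23 ± 0.13. Cytosolic ribosomal protein genes had a median of -0.16 (82 of 84 negative), with RPL23A past the threshold as lower, RPS17L (-0.56 ± 0.54) and RPL22L1 (-0.55 ± 0.12) lowest, and RPL24 (0.00 ± 0.10) and RPS27L (0.13 ± 0.12) highest. Protein-coding genes within the members' level range, members left out, had a median of -0.02 (3819 of 7264 negative).

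**Figure D4:**
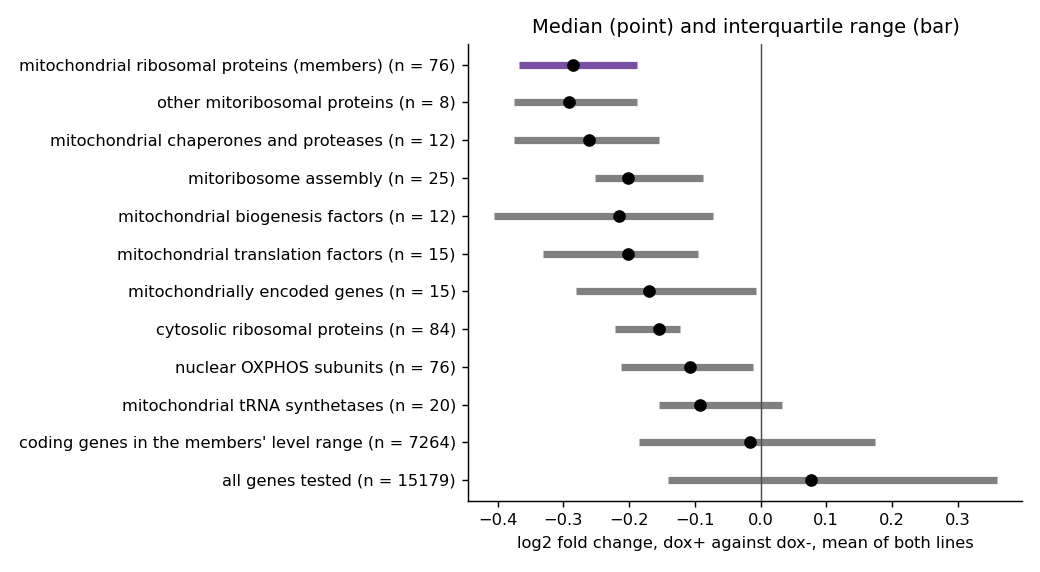
Log2 fold change between dox+ and dox- (mean of both lines, x axis) for the members, 9 other gene lists and 2 reference sets on the y axis, with the median as a point and the interquartile range as a bar. The members and the other mitoribosomal proteins have the lowest medians, both -0.29, and all genes tested the highest, 0.08.

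The study's own contrast, S34F dox+ against WT dox+, has doxycycline on both sides. It sets the induced alleles, and with them the subclones and the level of U2AF1, against each other. U2AF1 was at 164 and 223 FPKM in S34F dox+ and 278 and 299 FPKM in WT dox+, and the part of this difference was not tested. With all libraries the members had no common direction: their median log2 fold change was 0.00 (all genes 0.03) and 37 of 76 were negative (44.6% of all genes). Without single libraries the median ran from -0.07 to 0.04 and the number of negative members from 30 to 50. None passed after adjustment (0.0329% of all genes lower and 0.0198% higher). At an unadjusted p under 0.05 (limma) 2 were lower, MRPS16 and MRPS33, against 2.77% of all genes, and 0 were higher, against 4.01%. The 2 became 0 without WT dox+ replicate 1 and 1 without WT dox+ replicate 2 or S34F dox+ replicate 2. The WT and S34F libraries did not overlap in 11 members that were lower in S34F (15.3% of all genes) and 9 that were higher (20.5% of all genes).

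MRPS16 was at 20.7 and 22.1 FPKM in S34F dox+ and 30.5 and 28.1 FPKM in WT dox+ (-0.44 ± 0.18; limma, adjusted p = 0.728). MRPS33 was at 17.7 and 17.0 FPKM against 21.6 and 22.3 FPKM (-0.32 ± 0.13; limma, adjusted p = 0.697). MRPL30 (-0.92 ± 0.43) and MRPS18C (-0.28 ± 0.17) had the other lowest values without overlap. In the other direction MRPL17 was at 28.8 and 31.1 FPKM against 23.6 and 25.8 FPKM (0.27 ± 0.14; limma, adjusted p = 0.771), with MRPS12 at 0.24 ± 0.16, MRPS24 at 0.24 ± 0.14 and MRPS36 at 0.23 ± 0.19. Without WT dox+ replicate 1 MRPS36 was at 0.07 and MRPL30 at -0.47, without WT dox+ replicate 2 they were at 0.38 and -1.37, and without S34F dox+ replicate 2 MRPS12 was at 0.16. The median SE of a member was 0.15, so differences well above that size could go uncalled here, as that of MRPL17 did even before adjustment.

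The transduced lines without doxycycline were also compared with the parental line. This comparison uses the same dox- libraries as the doxycycline response, so the 2 are not independent. The members were somewhat higher in the uninduced lines, with a median log2 fold change of 0.10 (all genes -0.01) and 17 of 76 negative (51.4% of all genes). None passed after adjustment (0.138% of all genes lower and 0.105% higher). At an unadjusted p under 0.05 (limma) 11 members were above the parental line and 1 (MRPS6) was below, beside 6.21% and 6.86% of all genes, and the 11 became 6 without parental replicate 2, 7 without WT dox- replicate 1, 14 without WT dox- replicate 2 and 23 with TPM in place of FPKM. MRPS6 did not pass without parental replicate 2 or WT dox- replicate 1. All 3 uninduced libraries were above both parental ones in 21 members (16.1% of all genes) and below in 5 (17.1% of all genes), MRPS6, MRPS28, MRPS21, MRPS18A and MRPS33.

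MRPS2 had the highest fold change, at 40.8, 39.9 and 46.7 FPKM in the uninduced lines and 27.2 and 28.7 FPKM in the parental line (0.62 ± 0.14; limma, adjusted p = 0.125), and its dox+ libraries lay at 25.5 to 34.3 FPKM. MRPL36 was at 36.9, 28.8 and 39.6 FPKM against 23.5 and 22.6 FPKM (0.62 ± 0.24; limma, adjusted p = 0.342). MRPL52 had 0.46 ± 0.16. MRPS16 had 0.56 ± 0.17, but its parental libraries were far apart, at 31.1 and 20.8 FPKM, and the value was 0.83 without the first and 0.28 without the second. MRPS6 had the lowest fold change without overlap, at 58.7, 76.9 and 75.4 FPKM against 85.6 and 96.0 FPKM (-0.34 ± 0.14; limma, adjusted p = 0.351), followed by MRPS28 (-0.33 ± 0.20), MRPS21 (-0.29 ± 0.14) and MRPS18A (-0.22 ± 0.12). MRPS28 was at -0.22 without WT dox- replicate 1 and MRPS21 at -0.18 without parental replicate 1. In MRPS2 and MRPL36 the parental values lay within the range of the 4 dox+ libraries.

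Splicing of the members was read from the deposited MISO tables, which compare S34F with WT for 5 types of event and give PSI (percent spliced in, written from 0 to 1) and reads for 2 conditions, with no value per replicate. The order of the conditions was taken as S34F first. Over 37273 events with at least 100 reads in each, the first condition had 0.682 times the reads of the second, and the S34F dox+ libraries had 0.671 times the summed relative depth of the WT dox+ ones. Only events listed for 1 gene and on that gene's strand were kept, since the tables also list events of overlapping genes. For events other than skipped exons the tables do not say which isoform PSI counts. The coordinates given for an event run from the first to the last splice site that its name lists, so for a skipped exon they span the exon and the introns beside it. The reads listed for distant events of 1 gene are often the same. The skipped exons of MRPL1 at chr4:78784033-78804396 and chr4:78830526-78873643 both have 78 in the first condition and 124 in the second. How many of the listed reads tell the isoforms of an event apart is not given, and this holds for every read count and minimum of reads below. There are no replicates, so no test was made.

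A minority of the members' events differed between the conditions. A difference in PSI of at least 0.1, with at least 10 reads over both conditions, was found in 28 of 200 member events (14.0%), against 31.5% of 54335 events of all genes. With at least 100 reads in each condition it was 21 of 181 (11.6%) against 23.5%. The difference between these shares was not tested, as events of 1 gene share reads. By type, 17 of 104 skipped exons, 8 of 24 NAGNAG events (3′ splice sites 3 bases apart), 3 of 37 alternative 5′ splice sites, 0 of 14 retained introns and 0 of 21 alternative 3′ splice sites of the members were past 0.1, where 30.8%, 38.7%, 26.6%, 30.1% and 29.5% of all events were. The 28 events lay in 13 of the 45 member genes with an event: MRPL52, MRPL1, MRPL48, MRPL55, MRPS18B, MRPS18C, MRPL33, MRPS18A, MRPL36, MRPL42, MRPS9, MRPL47 and MRPL17.

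MRPL52, a large subunit protein without a bacterial counterpart, had the widest differences, in 6 events, 5 of which overlap one another. At its alternative 5′ splice site (chr14:23299149-23299259, GRCh37, plus strand) PSI was 0.43 in S34F on 142 reads and 0.89 in WT on 183. A NAGNAG event at chr14:23299149-23299262 had 0.58 and 0.15. With the 3′ splice site at 23299259, the skipped exon event at chr14:23299149-23299396 had 0.65 and 0.85. With that at 23299262 it had 0.76 and 0.67, which is under 0.1 apart, so this form is not among the 6. An alternative 5′ splice site event at chr14:23299149-23299262 had 0.72 and 0.56, and a NAGNAG event at chr14:23299157-23299262 had 0.26 and 0.39. Among the 6, alternative 5′ splice sites and NAGNAG events thus went in both directions, whereas the skipped exons had a lower PSI in S34F. The event that overlaps none of these, a skipped exon further along the gene at chr14:23299463-23303381, had 0.75 and 0.88. The gene's summed level did not separate the same groups, at 72.2 and 60.3 FPKM in S34F dox+ and 48.4 and 65.3 FPKM in WT dox+.

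MRPS18B, 1 of 3 human paralogues of a bacterial small subunit protein, had 3 events past 0.1, all listed with 451 reads in S34F and 653 in WT. The skipped exon event at chr6:30587583-30590609 had a PSI of 0.63 in S34F and 0.36 in WT, and the NAGNAG event at chr6:30590675-30592663 had 0.41 and 0.13. A second skipped exon, at chr6:30590675-30593279, went the other way, with 0.29 and 0.41. The paralogue MRPS18A had 0.79 and 0.93 at a skipped exon. Exons of MRPS9 (0.62 and 0.46, on 419 and 701 reads) and MRPL42 (0.92 and 0.76, on 324 and 483 reads) had a higher PSI in S34F. Of 2 exons of MRPL33, one had a lower PSI in S34F (0.49 and 0.69, on 100 and 169 reads) and the other a higher one (0.42 and 0.31, on 144 and 225 reads).

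NAGNAG events of MRPL17 (0.55 and 0.33), MRPL47 (0.34 and 0.14) and MRPL55 (0.81 and 0.62) had higher PSI in S34F. Of the 8 NAGNAG events past 0.1, 7 were higher in S34F, where 55.0% of all NAGNAG events past 0.1 were, but the 8 come from 5 genes and events of 1 gene share reads, so they are not separate observations. MRPL48 had 1 skipped exon with a higher PSI in S34F (0.90 and 0.78, on 114 and 157 reads) and 2 with a lower one on fewer reads (0.60 and 0.86, on 50 and 67, and 0.57 and 0.71, on 34 and 49). MRPL36 had an alternative 5′ splice site at 0.90 and 0.78. The remaining ones were listed with fewer reads. MRPL1 had 3 skipped exons at 0.55, 0.76 and 0.82 in S34F and 0.91, 0.91 and 0.94 in WT, each listed with 78 and 124 reads. MRPS18C had 0.63 and 0.33, listed with 25 and 61 reads, and 0.94 and 0.84, listed with 58 and 115. Retained introns of the members did not differ by 0.1 in any of the 14 events.

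**Figure D5:**
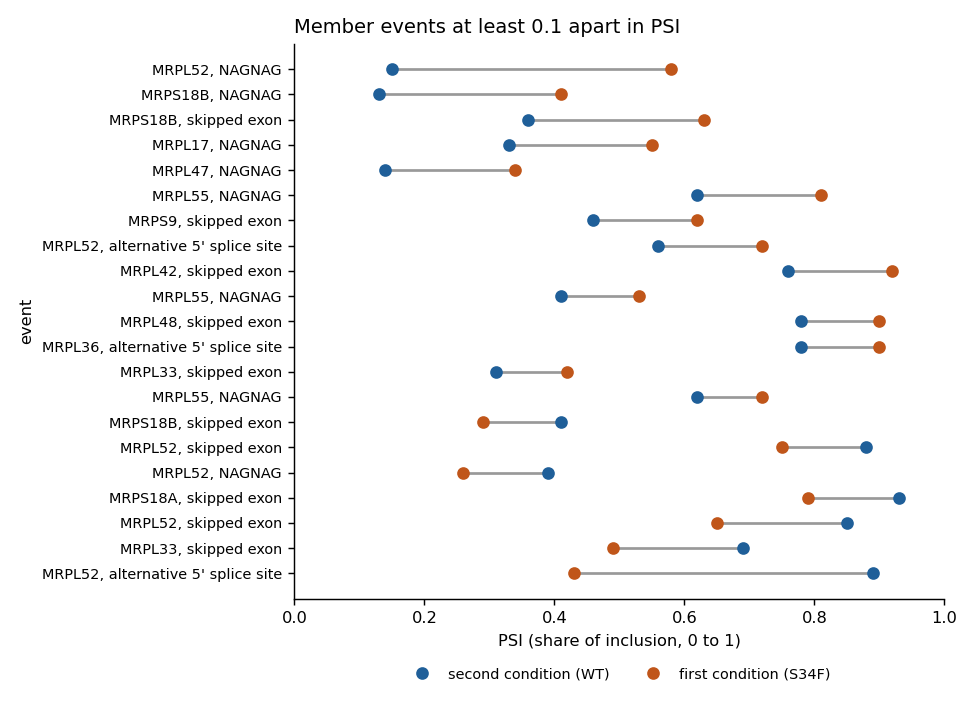
PSI (x axis, from 0 to 1) of the 21 member events on the y axis that had 100 reads or more for both conditions and differed by at least 0.1 between S34F (orange) and WT (blue), 1 line an event. PSI is higher in S34F in 14 of them and lower in 7, and MRPL52 has the widest differences in both directions.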

How the data were processed

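RNA was measured in 9 libraries. The authors trimmed paired-end reads to 2x100, aligned them with STAR 2.3.0 and computed gene-level FPKM and TPM with RSEM 1.2.29 on GRCh37, and deposited both units per gene. The table holds no counts, so no count model was used. The authors estimated PSI, a fraction, with MISO and deposited it with the count of reads per event for the pooled conditions, together with columns of their own comparison (PSI differences and Bayes factors), which were not used although a Bayes factor had been planned as a threshold. How replicates were combined there is not given in the sources used here. The iCLIP samples were not analysed here.

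FPKM was tested with limma 3.58.1 (R 4.3.3, trend) on log2(FPKM + 1) over 15179 genes whose mean reached 1 FPKM, with the 5 groups in 1 fit, two-sided, with Benjamini-Hochberg adjustment over all of them. The fold change on this scale understates that of low genes. The script was tested on simulated data. The members and lists were chosen with earlier results of these data known. Named are the 5 highest and 5 lowest members, in each comparison up to 4 per direction without overlap between groups (not asked of the difference of responses) among those with a mean of at least 5 FPKM, members past adjusted p, 19 fixed for their role, those with a changed splicing event, and the 2 extremes per direction of each list. Cytosolic ribosomal genes were matched by symbol. Relative depth is the most common ratio of low FPKM values to those of parental replicate 1. Strands came from RefSeq (67 of 76 symbols), and events of the other 9 were left out. Replicate numbers did not pair the libraries: the correlation of replicate differences between groups was -0.0756 to 0.0374 in 6 pairs of groups. Alternatives covered pseudocount, minimum level, scaling, unit, block, genes and libraries.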

Additional observations from a re-analysis of the deposited data

How the results depend on the processing

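The direction of the members' doxycycline response was the same under every alternative run, and the number past the adjusted threshold was not. In place of 3, the members lower at an adjusted p under 0.05 numbered 5 with a pseudocount of 0.1, 0 with no minimum FPKM, 7 with a minimum mean of 5 FPKM, 23 with median-ratio scaling, 0 with quantile normalization, 7 with TPM, 8 with protein-coding genes only, 0 with only the groups compared, 0 with the replicate block, and 0 without each library in turn. The cause was not tested. At an unadjusted p under 0.05 (limma) the count was 34 to 60 over the settings that keep all libraries, and 35 with the replicate block. The members' median minus that of all genes moved from -0.36 to -0.44 with no minimum, -0.27 with a minimum of 5 FPKM and -0.22 with quantile normalization, and was -0.40 to -0.32 without each library in turn. In the WT line, where it was -0.30, it became -0.24 with a minimum of 5 FPKM, -0.20 with quantile normalization and -0.37 to -0.22 without single libraries.

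For the difference of the responses the same gap was -0.014 with quantile normalization and -0.16 to -0.050 without single libraries, and for S34F dox+ against WT dox+ it was -0.085 to 0.032 without single libraries. With TPM the unadjusted counts of higher members in the uninduced lines were 23 in place of 11. MRPS14 turned to -0.083 with median-ratio scaling, and without single libraries MRPL10 ranged from -0.17 to 0.026 (mean response) and MRPL34 from -0.031 to 0.82 (difference of the responses), both turning without WT dox+ replicate 1. The gap between the lowest dox- and the highest dox+ library in the members' median level was 0.28 with median-ratio scaling in place of 0.18. Changed member events numbered 11 at a PSI difference of 0.2 in place of 28, and 61 when events on either strand or listed under several genes were also counted, an alternative chosen after seeing the data, as was the minimum of 100 reads. Over the named members and all alternatives, 669 of 723 values kept their sign and side of the threshold, 21 were newly past it, 30 were no longer past it and 3 turned. The Bayes factor alternative was not run, since those columns hold the authors' comparison, and the single S34F dox- library could not be left out. The replicate block changed no other call of a count. Depth is unknown in absolute terms, which limits what small differences can show.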
